A study of Mus musculus with 18 samples.

Results

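Glycolysis turns glucose into pyruvate and lactate, and hypoxia-inducible factor (HIF) is the transcription factor through which cells adjust that pathway to oxygen supply. The measurements below follow 35 genes of these programmes in mouse bone marrow-derived dendritic cells. They are 25 genes of glucose uptake, glycolysis, lactate transport and pyruvate entry, and 10 genes of the HIF system and its targets. The genes were taken by symbol from tables of 23420 genes, of which 11876 passed a filter on low counts and were tested. All 35 genes passed that filter and were tested.

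RNA was sequenced from 18 libraries of C57BL/6 dendritic cells, grown from bone marrow with 20 ng/ml GM-CSF, re-plated from day 9 cultures, treated for 8 h and sorted as live cells with high CD11c. The 12 wild-type (WT) libraries fall into 4 groups of 3: medium, LPS, IL10 with TGF-β, and LPS together with IL10 and TGF-β. LPS is the bacterial lipopolysaccharide that activates dendritic cells, and IL10 with TGF-β, called the cytokines here, is the condition the sample titles abbreviate as Tol. The other 6 libraries are Bat3 fl/fl CD11c Cre cells, 3 in medium and 3 with LPS, in which a Cre recombinase expressed from the CD11c promoter removes the floxed Bat3 gene from CD11c-expressing cells (cKO). Doses of LPS and of the cytokines, and whether the WT cells carried the Cre or the floxed alleles, were not named by the labels, and an effect of the Cre cannot be told apart from the loss of Bat3. The labels mention both triplicates and 5 biological replicates, and no label ties the 3 libraries of a group to separate mice. The p-values therefore measure the spread between these libraries, which may be technical. In each cKO group the first library differed from the others in Xist, as given below, so there the spread was not only technical.

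Glucose enters through SLC2A transporters, is trapped by hexokinases, and is committed to glycolysis by phosphofructokinase, whose activator is made by the PFKFB enzymes. The lower pathway, from aldolase to enolase, yields pyruvate, which lactate dehydrogenase turns into lactate for export by SLC16A transporters, or which enters mitochondria unless PDK1 blocks pyruvate dehydrogenase. HIF pairs an α subunit such as HIF1A with ARNT. Under normal oxygen the EGLN enzymes hydroxylate the α subunit, VHL then marks it for destruction, and several HIF targets, among them the EGLN enzymes themselves, feed back on the system. Dendritic cells activated through LPS receptors are known to raise glycolysis. RNA levels such as those below do not measure HIF1A protein or glucose flux.

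HIF binds the core letters ACGTG or GCGTG, so the starts of the genes were searched for these letters. RefSeq promoter windows of build GRCm38.p6, each 300 bases long with 250 bases before and 50 after a transcript start, were at hand for 33 of the 35 genes. Slc2a3 and Ndrg1 had none. The letters, read on both strands, occurred in 30 of these 33 genes (90.9%) and in 67.4% of the 8871 tested genes with a window. Gpi1, Tpi1 and Eno2 held none. At least 2 matches were found in 24 of the 33 genes (72.7%) and in 38.4% of the tested genes. Counted by window, 41 of the 50 windows of the 35 genes (82%) and 61.5% of the 11293 windows of tested genes held a match. ACGTG is also part of the E-box CACGTG that other factors bind. An E-box reads the same on both strands, so each E-box counted as 2 matches. Of the 50 windows 7 held an E-box (14%), against 9.99% of the windows of tested genes. A match describes the letters and shows no binding.

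The windows of 4 genes are shown because their RNA carries much of what follows. Ankrd37, Adm and Bnip3 are HIF targets that rose in cKO cells, and Slc2a6 is the transporter gene that fell furthest with the cytokines. Genes that rose in cKO cells did not all hold matches in each window. Vegfa held 0 in window 1 of 2 and 2 in window 2, and Gpi1 held 0 in its window. In each line, written 5′ to 3′ on the gene's own strand, capitals mark the letters ACGTG or GCGTG or their reverse complements. The windows lie at chr8:45999801-46000100 on the minus strand with 4 matches, a pair of them overlapping, chr7:110627407-110627706 on the plus strand with 2, chr7:138909457-138909756 on the minus strand with 5, including an E-box, and chr2:27027949-27028248 on the minus strand with 4.
Ankrd37: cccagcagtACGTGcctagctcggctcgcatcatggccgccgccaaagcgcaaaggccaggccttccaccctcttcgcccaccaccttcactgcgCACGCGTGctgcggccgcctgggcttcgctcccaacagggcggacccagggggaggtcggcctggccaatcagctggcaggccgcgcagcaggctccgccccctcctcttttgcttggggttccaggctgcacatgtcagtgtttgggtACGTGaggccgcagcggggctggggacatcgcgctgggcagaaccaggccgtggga
Adm: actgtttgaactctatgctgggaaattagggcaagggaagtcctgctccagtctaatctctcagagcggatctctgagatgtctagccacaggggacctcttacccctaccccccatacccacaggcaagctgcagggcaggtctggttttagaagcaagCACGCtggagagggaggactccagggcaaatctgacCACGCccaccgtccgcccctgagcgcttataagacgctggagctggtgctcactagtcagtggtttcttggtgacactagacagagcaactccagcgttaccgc
Bnip3: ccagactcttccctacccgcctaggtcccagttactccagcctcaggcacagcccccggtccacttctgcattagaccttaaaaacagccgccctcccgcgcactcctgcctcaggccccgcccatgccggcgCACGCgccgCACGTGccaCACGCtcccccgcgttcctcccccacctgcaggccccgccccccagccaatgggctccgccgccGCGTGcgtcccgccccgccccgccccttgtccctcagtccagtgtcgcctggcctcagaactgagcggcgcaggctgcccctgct
Slc2a6: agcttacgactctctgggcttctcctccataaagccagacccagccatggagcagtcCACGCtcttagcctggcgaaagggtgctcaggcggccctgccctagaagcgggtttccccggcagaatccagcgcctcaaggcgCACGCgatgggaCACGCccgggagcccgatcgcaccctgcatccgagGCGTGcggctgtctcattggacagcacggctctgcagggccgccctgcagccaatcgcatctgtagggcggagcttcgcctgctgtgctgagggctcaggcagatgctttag

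Total expected counts ran from 8056831 to 12068759 per library. Bag6, the symbol the files use for Bat3, lay at 22.8 to 27.6 CPM (counts scaled to library size) in the 12 WT libraries and at 4.56 to 11.3 CPM in the 6 cKO libraries. Its log2 change in cKO cells was -2.08 ± 0.17 in medium (log2, SE; adjusted p = 9.1e-08) and -1.36 ± 0.17 under LPS (adjusted p = 9.3e-06), so part of the transcript remained. The first library of each cKO group held Xist at 526 and 1014 CPM and the other 16 libraries at most 1.12 CPM, so the counts of called genes in the cKO comparisons, and the calls that changed, are also given without these libraries. Itgax, which encodes CD11c, was present in all 18 libraries at 254 to 1014 CPM, and Flt3 was at 0 in 9 of them. Lymphocyte and erythroid markers summed to at most 1.23 and 2.27 CPM in any library, with Cd3g and Hba-a2 at 0 in all. Granulocyte and dendritic cell markers differed between groups and are given beside the results they move with. In bulk RNA, fewer cells of a type and less RNA per cell cannot be told apart.

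Levels below are in CPM on library sizes scaled by TMM, and are comparable for 1 gene between libraries but not between genes. Differences are log2 fold changes ± SE from one edgeR quasi-likelihood fit over all 18 libraries, with 3 libraries in each group. A gene is called when its p, adjusted by Benjamini-Hochberg over all 11876 genes of the comparison, is under 0.05, and "rose" and "fell" are used of called genes only. Libraries are listed in the order of their replicate numbers. Overlap between the libraries of compared groups is stated for the genes described, and was not counted over all tested genes. Across the 7 comparisons between groups, 34 of the 35 genes were called at least once, as were 90.5% of all tested genes. Slc16a3, the lactate exporter, was called in none.

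**Figure D1:**
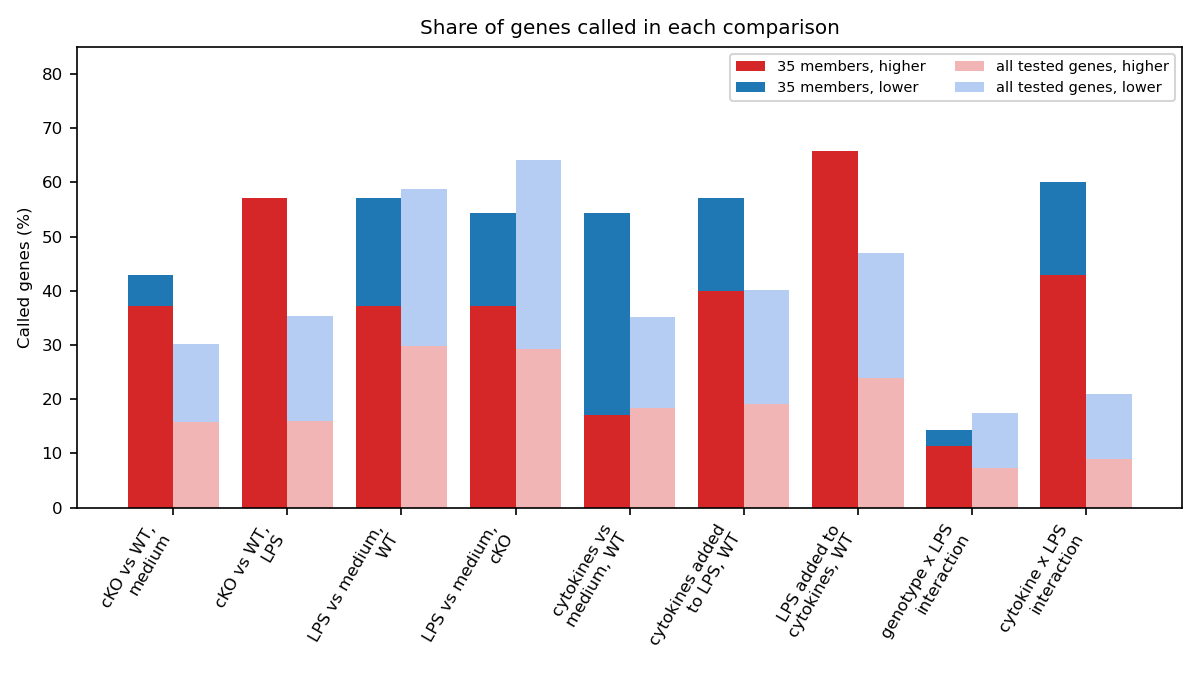
Share of the 35 genes (dark bars) and of all 11876 tested genes (pale bars) called higher (red) or lower (blue) in each comparison, in percent. In the comparison of LPS added to the cytokines, 23 of the 35 genes were called higher and none lower, against 23.9% and 23.1% of all genes.

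LPS on WT cells raised the glucose transporter gene Slc2a1, the hexokinases Hk2 and Hk3, the regulator Pfkfb3 and 6 of the 10 HIF genes. It lowered Aldoc, Slc16a1, Pdk1 and Egln1, among others. Of the 35 genes, 13 rose and 7 fell, against 58.7% of all tested genes called, 29.8% higher and 28.9% lower. The share called was thus near the background, and the median over the 35 genes was 0.06 against 0.01 over all genes. Among the 25 glycolysis genes 7 rose (Slc2a1, Slc2a3, Hk2, Hk3, Pfkfb3, Pfkfb4, Eno2) and 6 fell (Gpi1, Pfkfb2, Aldoc, Eno1, Slc16a1, Pdk1). Among the 10 HIF genes 6 rose (Hif1a, Vegfa, Adm, Ankrd37, P4ha1, Mxi1) and 1 fell (Egln1).

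At the point of glucose entry, Slc2a1, the main glucose transporter of activated leukocytes, stood at 195, 199.7 and 205 CPM in WT medium and at 417, 282 and 359 CPM with LPS. The groups did not overlap (0.82 ± 0.11, adjusted p = 3.4e-06). Slc2a6, a transporter of lysosomal membranes, stood at 191, 169 and 218 CPM in medium and 224, 154 and 166 CPM with LPS. These groups overlapped, and the gene was not called (-0.09 ± 0.15, adjusted p = 0.64).  Hk2, the inducible hexokinase, went from 58.8, 59.8 and 61.1 to 204, 148 and 170.4 CPM (1.54 ± 0.10, adjusted p = 1.0e-10). Hk3, the hexokinase of myeloid cells, went from 101, 95.6 and 90.1 to 329.9, 354 and 342 CPM, a 3.58-fold rise (1.84 ± 0.11, adjusted p = 7.4e-12). Hk1, the constitutive form, was not called (0.04 ± 0.11, adjusted p = 0.76).

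Among the regulators of phosphofructokinase, Pfkfb3, which makes the activator fructose 2,6-bisphosphate, showed the largest called change of this class. It stood at 17.4, 16.6 and 11.4 CPM in medium and 119, 132 and 114 CPM with LPS, an 8.03-fold rise (3.00 ± 0.18, adjusted p = 4.1e-11). Pfkfb4 rose by 0.27 ± 0.10 (adjusted p = 0.024) and Pfkfb2 fell (-0.55 ± 0.22, adjusted p = 0.037). None of the phosphofructokinase subunit genes Pfkl, Pfkm and Pfkp was called, with log2 changes from -0.23 to 0.14.

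Gpi1, glucose-6-phosphate isomerase, had 3449, 3874 and 2791 CPM in medium and 2746, 2222 and 3089 CPM with LPS. Its groups overlapped, although the gene was called lower (-0.33 ± 0.13, adjusted p = 0.039). Aldoc, a minor aldolase in these cells, fell from 246, 268 and 189 to 98.1, 79.9 and 107 CPM with no overlap (-1.30 ± 0.12, adjusted p = 1.6e-08). Gapdh had 8506, 8833 and 7815 CPM in medium and 8442, 7010.2 and 8419.6 CPM with LPS, and the groups overlapped (-0.08 ± 0.13, adjusted p = 0.62). Aldoa, Tpi1, Pgk1, Pgam1 and Ldha were not called either, with log2 changes from -0.12 to 0.13. Eno1 fell (-0.38 ± 0.11, adjusted p = 0.0051). Eno2, the neuronal enolase, rose from 5, 4.73 and 2 counts to 39, 36.9 and 38 counts, a low level in both groups (adjusted p = 5.7e-07).

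At the exit of the pathway, Slc16a1, a monocarboxylate carrier of lactate and pyruvate, stood at 16.2, 14.6 and 22.2 CPM in medium and 6.94, 4.67 and 5.41 CPM with LPS. Every LPS library was below every medium library, and the gene fell 3.11-fold (-1.64 ± 0.20, adjusted p = 5.6e-07). Pdk1, the kinase that turns off pyruvate dehydrogenase, fell as well (-0.97 ± 0.18, adjusted p = 1.2e-04).

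In the HIF system, Hif1a went from 357, 341 and 339 CPM to 509, 554 and 512 CPM without overlap (0.60 ± 0.09, adjusted p = 6.5e-06). Egln1, the main oxygen-sensing prolyl hydroxylase, went the other way, from 33.5, 43 and 29.8 to 21.1, 17.2 and 19.4 CPM (-0.88 ± 0.18, adjusted p = 2.9e-04). Egln3 was not called (0.19 ± 0.19, adjusted p = 0.41). Among the targets, Vegfa, the vascular growth factor, was nearly silent in medium, at 1.53, 1.89 and 0.421 CPM. With LPS it reached 6.49, 9.92 and 8.94 CPM (2.71 ± 0.35, adjusted p = 1.9e-06). Ankrd37, an ankyrin-repeat protein gene and one of the HIF targets with a marked promoter above, rose from 26.9, 33 and 24.1 to 113, 115 and 121 CPM (2.05 ± 0.18, adjusted p = 1.3e-08). P4ha1, a collagen prolyl hydroxylase subunit, rose from 189, 176 and 149 to 453, 545 and 534 CPM (1.57 ± 0.13, adjusted p = 1.4e-09). All 3 genes separated the groups fully.

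The vasodilator peptide gene Adm was low in both groups, at 1.95, 1.37 and 2.27 CPM in medium and 8.73, 3.15 and 5.07 CPM with LPS (1.59 ± 0.32, adjusted p = 2.7e-04). Mxi1, which encodes a partner of MAX that opposes MYC, rose from 28.2, 33.3 and 24.4 to 54.3, 61.3 and 56.7 CPM (1.00 ± 0.14, adjusted p = 2.7e-06). Bnip3, a mitophagy receptor, had 755, 792 and 580.1 CPM in medium and 696, 419.5 and 633 CPM with LPS. The Bnip3 groups overlapped, and neither Bnip3 (-0.28 ± 0.16, adjusted p = 0.13) nor Ndrg1 (-0.26 ± 0.25, adjusted p = 0.40) was called.

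Of the other genes of these pathways, 16 of 31 tested hypoxia targets rose and 5 fell, led by Ddit4, an inhibitor of mTORC1 (4.87 ± 0.20, adjusted p = 4.5e-14), and Hilpda, a lipid droplet protein (3.20 ± 0.14, adjusted p = 6.4e-14). Of 23 further glycolysis and pyruvate genes 6 rose and 10 fell, with Pdha1, a pyruvate dehydrogenase subunit, lower (-0.75 ± 0.08, adjusted p = 1.7e-07) and Gpd2, the mitochondrial glycerol phosphate dehydrogenase, higher (1.08 ± 0.12, adjusted p = 2.2e-07). Of 15 pentose phosphate and glycogen genes 4 rose and 5 fell, with Pgls lower (-0.96 ± 0.09, adjusted p = 2.2e-08). Of 10 HIF pathway genes 2 rose, Arnt (0.89 ± 0.10, adjusted p = 1.0e-07) and Hif1an (0.36 ± 0.12, adjusted p = 0.011), and 2 fell.

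Granulocyte markers summed to 925 to 1492 CPM in WT medium and 2234 to 4443 CPM in WT LPS, and 3 of 14 rose and none fell. Of 10 macrophage markers 4 rose and 6 fell, at 1899 to 2090 CPM against 1851 to 2016 CPM. Of 12 dendritic cell markers 3 rose and 1 fell, and of 7 mast cell and basophil markers 1 rose. Their part in these results was not tested. On the log2(TPM + 1) scale the median of all genes was -0.19 and that of the 35 genes -0.22, and 11 of the 35 genes were then called higher and 13 lower. Upper-quartile scaling gave medians of -0.11 over all genes and -0.06 over the 35 genes. Calls depended on single libraries for Gpi1 (lost without WT medium 1 or 2 or WT LPS 1 or 2, log2 -0.35 to -0.21, adjusted p 0.056 to 0.21), Pfkfb2 (lost without WT medium 1 or 3 or WT LPS 2 or 3, log2 -0.55 to -0.43, adjusted p 0.067 to 0.15), Pfkfb4 (lost without WT medium 2 or 3 or WT LPS 3, log2 0.25 to 0.26, adjusted p 0.059 to 0.079) and Slc2a3 (lost without WT medium 2 or 3 or WT LPS 3, log2 0.92 to 1.68, adjusted p 0.052 to 0.18).

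**Figure D2:**
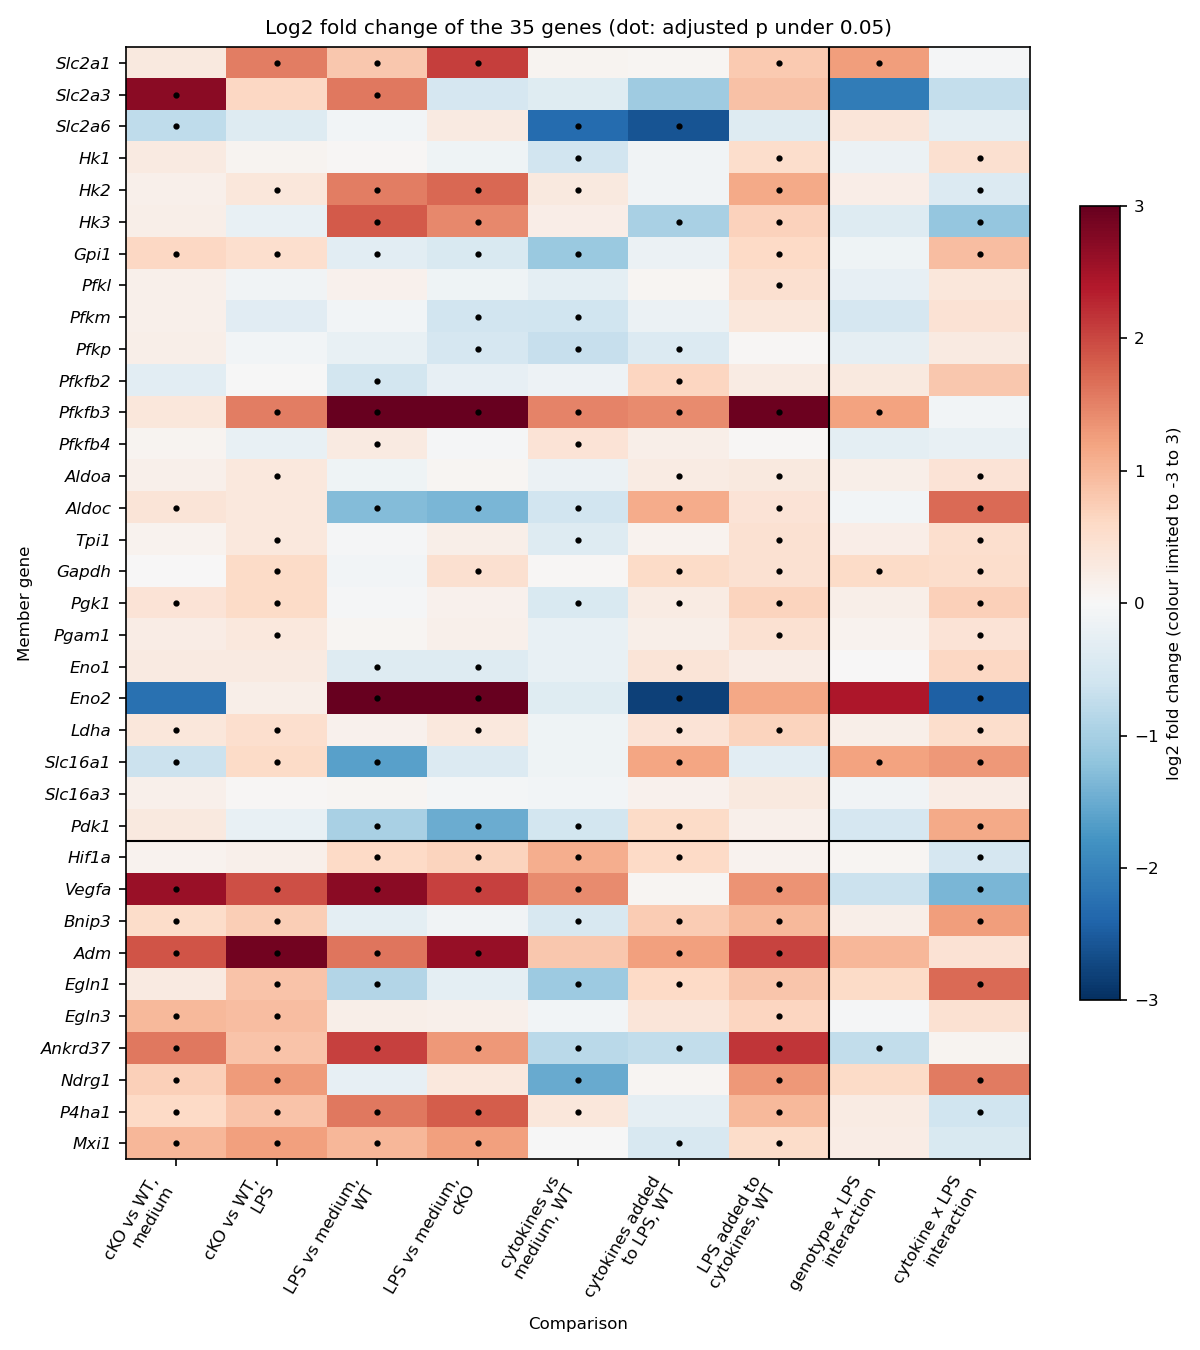
Log2 fold change of the 35 genes (vertical axis, the 10 HIF genes under the line) in the 7 comparisons and 2 interactions (horizontal axis), with black dots where the adjusted p was under 0.05. Colours are limited to -3 to 3. Pfkfb3 is dark red in both LPS comparisons of WT and cKO cells, and Vegfa, Adm and Ankrd37 are red in both cKO columns.

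In medium, cKO cells held more RNA of 8 of the 10 HIF genes than WT cells, with Vegfa 5.98-fold and Ankrd37 3.02-fold higher. Of the 35 genes 13 were called higher and 2 lower, against 30.2% of all tested genes called, 15.8% higher and 14.4% lower. The median over the 35 genes was 0.27, against -0.00 over all genes. Of the 10 HIF genes 8 rose (Vegfa, Bnip3, Adm, Egln3, Ankrd37, Ndrg1, P4ha1, Mxi1), and Hif1a and Egln1 were not called. Of the 25 glycolysis genes 5 rose (Slc2a3, Gpi1, Aldoc, Pgk1, Ldha) and 2 fell (Slc2a6, Slc16a1).

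Ankrd37 had the smallest adjusted p of the 35 genes here, with 97.3, 63.7 and 92.4 CPM in cKO medium against 24.1 to 33 CPM in WT medium. The groups did not overlap (1.59 ± 0.17, adjusted p = 5.1e-06). Mxi1 stood at 54.1, 45.9 and 71.5 CPM in cKO medium against 24.4 to 33.3 CPM (1.00 ± 0.14, adjusted p = 2.6e-05). P4ha1 stood at 296, 274 and 213 CPM against 149 to 189 CPM (0.61 ± 0.13, adjusted p = 0.0011). For all 3 genes the lowest cKO library was above the highest WT library. Vegfa, at 5.63, 7.41 and 10.1 CPM against 0.421 to 1.89 CPM, showed the largest HIF target fold in medium (2.58 ± 0.35, adjusted p = 3.0e-05). Adm stood at 8.53, 6.93 and 5.49 CPM against 1.37 to 2.27 CPM (1.90 ± 0.31, adjusted p = 1.6e-04). Both folds rest on few reads in WT medium, where Vegfa had 18, 22 and 5 counts and Adm 23, 16 and 27 counts.

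Bnip3 stood at 1093, 1001 and 1038 CPM in cKO medium against 580.1 to 792 CPM in WT medium (0.56 ± 0.16, adjusted p = 0.012). Egln3, an oxygen-sensing hydroxylase and itself a HIF target, rose (0.96 ± 0.19, adjusted p = 0.0011), as did Ndrg1, a stress-response gene (0.70 ± 0.25, adjusted p = 0.047). Hif1a itself, at 402, 379 and 326 CPM, overlapped its WT range of 339 to 357 CPM (0.09 ± 0.09, adjusted p = 0.45). Egln1, at 36.8, 34.5 and 56.3 CPM, overlapped too (0.27 ± 0.17, adjusted p = 0.25).

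In glycolysis, Slc2a3, a high-affinity glucose transporter, stood at 166, 128 and 50.1 CPM in cKO medium against 24.8, 19.98 and 8.33 CPM in WT medium. The groups did not overlap but spread widely (2.70 ± 0.56, adjusted p = 0.0033). With LPS it stood at 37.9, 29.1 and 91.6 CPM in WT and 62.9, 111 and 68.5 CPM in cKO cells, with overlap. In WT cells it stood at 16.2, 12.8 and 12.2 CPM with the cytokines and 28, 31.7 and 15.4 CPM with both. Slc2a1 had 248, 247 and 236 CPM in cKO medium against 195 to 205 CPM and was not called (0.28 ± 0.11, adjusted p = 0.065). Slc2a6 was lower, at 104, 131 and 107 CPM against 169 to 218 CPM (-0.76 ± 0.15, adjusted p = 0.0011). Hk2, at 65.9, 73 and 60.9 CPM, and Hk3, at 113, 111 and 99.6 CPM, were not called (adjusted p = 0.28 and 0.21). Pfkfb3, at 19.8, 23.7 and 14.2 CPM, overlapped WT medium (0.34 ± 0.18, adjusted p = 0.15).

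Gpi1 was higher in cKO medium, at 5579, 5218 and 4781 CPM against 2791 to 3874 CPM (0.62 ± 0.13, adjusted p = 0.0015). Aldoc stood at 300.4, 292 and 329 CPM against 189 to 268 CPM (0.39 ± 0.12, adjusted p = 0.018). Pgk1 (0.42 ± 0.09, adjusted p = 0.0024) and Ldha (0.33 ± 0.10, adjusted p = 0.016) rose too. Gapdh varied more among the cKO libraries than between genotypes, at 6901, 10718 and 7833 CPM (0.02 ± 0.13, adjusted p = 0.94). Slc16a1 was lower, at 9.16, 12.7 and 12.3 CPM against 14.6 to 22.2 CPM (-0.63 ± 0.18, adjusted p = 0.013). Eno2 had 0.98, 1.01 and 0 counts in cKO medium, too few for a fold. It was not called (adjusted p = 0.056).

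Of the other hypoxia targets 18 of 31 rose and none fell, led by Hilpda (1.85 ± 0.13, adjusted p = 1.0e-08) and Ccng2, an atypical cyclin (1.79 ± 0.15, adjusted p = 1.2e-07). Further glycolysis and pyruvate genes split 3 higher and 3 lower of 23, with Ldhb, the other lactate dehydrogenase subunit, lower (-1.78 ± 0.27, adjusted p = 7.8e-05). Pentose phosphate and glycogen genes split 4 higher and 3 lower of 15, with Tkt, transketolase, lower (-0.58 ± 0.11, adjusted p = 7.2e-04) and Gbe1, the glycogen branching enzyme, higher (1.02 ± 0.19, adjusted p = 7.5e-04). HIF pathway genes split 1 higher, Cited2 (0.93 ± 0.21, adjusted p = 0.0025), and 3 lower of 10.

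Granulocyte markers moved with this comparison. They summed to 1673 to 4211 CPM in cKO medium against 925 to 1492 CPM in WT medium, and 11 of 14 rose and none fell. Of 7 tested mast cell and basophil markers 4 rose and none fell, at summed levels of 16.7 to 39.0 CPM against 4.04 to 17.2 CPM. Of 10 macrophage markers 1 rose and 4 fell, and of 12 dendritic cell markers 1 fell. The ribosomal RNA gene Rn45s held 1.28 to 4.01% of the counts in cKO medium and 6.38 to 8.02% in WT medium, without overlap. The part of these lists and of Rn45s in the result was not tested, but with Rn45s removed before scaling 12 genes were higher and 2 lower. Without the first library of both cKO groups 10 of the 35 genes were higher and 1 lower, against 20.3% of all genes called. The calls lost were those of Bnip3 (0.52, adjusted p = 0.06), Ldha (0.26, adjusted p = 0.097), Ndrg1 (0.73, adjusted p = 0.1) and Slc16a1 (-0.50, adjusted p = 0.087). Single libraries decided the call for Aldoc (lost without WT medium 3 or cKO medium 3, log2 0.26 to 0.34, adjusted p 0.068 to 0.12), Bnip3 (lost without WT medium 3, log2 0.43, adjusted p 0.069), Ldha (lost without WT medium 1 or cKO medium 1 or 3, log2 0.26 to 0.32, adjusted p 0.053 to 0.087), Ndrg1 (lost on leaving out any 1 of 5 of the 6 libraries, log2 0.50 to 0.80, adjusted p 0.065 to 0.18) and Slc16a1 (lost without WT medium 3 or cKO medium 1, log2 -0.50 to -0.44, adjusted p 0.076 to 0.096).

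**Figure D3:**
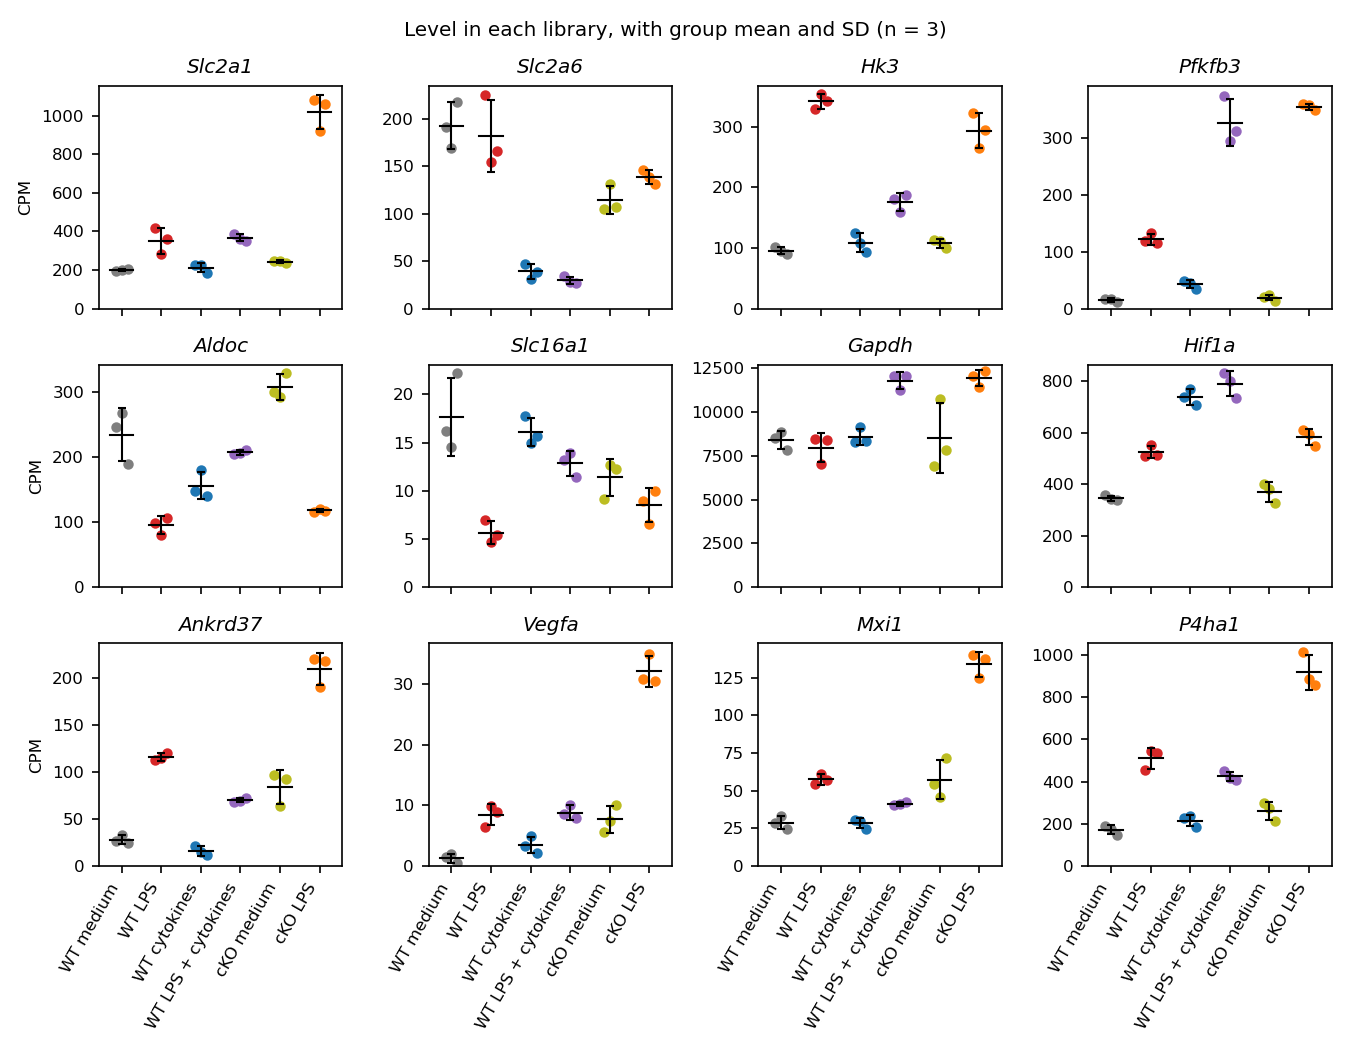
CPM of 12 of the genes in each of the 18 libraries (points), by group, with the group mean and SD (black, n = 3). Vertical axes start at 0. Slc2a1, Ankrd37, Vegfa, Mxi1 and P4ha1 stand highest in the 3 cKO LPS libraries, and Slc2a6 stands lowest in the 6 libraries that received the cytokines.

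Under LPS, cKO cells held more RNA of 11 of the 25 glycolysis genes and 9 of the 10 HIF genes than WT cells, with Adm 7.49-fold, Slc2a1 2.89-fold and Pfkfb3 2.91-fold higher. Of the 35 genes 20 were higher in cKO cells and 0 were lower, against 35.3% of all tested genes called, 16% higher and 19.3% lower. Over the 35 genes the median was 0.35 against -0.05 over all genes. At an unadjusted p under 0.05, 3 of the 35 genes were lower, and DESeq2 called 0 lower. Leaving out WT LPS 2 gave 16 genes called higher and 3 lower, against 34.7% of all tested genes called. Of the 10 HIF genes 9 rose, with Hif1a the exception, and of the 25 glycolysis genes 11 rose (Slc2a1, Hk2, Gpi1, Pfkfb3, Aldoa, Tpi1, Gapdh, Pgk1, Pgam1, Ldha, Slc16a1). Of the 13 genes higher in cKO medium, 11 were also higher under LPS, which is 84.6% of the first list and 55% of the second. Over all tested genes the shared calls were 41.3% and 40.7%.

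Slc2a1 reached 1082, 919 and 1059.5 CPM in cKO LPS against 282 to 417 CPM in WT LPS, without overlap (1.53 ± 0.12, adjusted p = 1.9e-08). Pfkfb3 reached 359, 357 and 349 CPM against 114 to 132 CPM (1.54 ± 0.16, adjusted p = 1.8e-06). These were the largest of the called glycolysis differences, and neither overlapped. Slc2a6, at 146, 138 and 131 CPM against 154 to 224 CPM, missed the threshold (-0.39 ± 0.15, adjusted p = 0.054). Hk3, at 322, 265 and 294 CPM, was not called (-0.22 ± 0.10, adjusted p = 0.10). Hk2, at 236, 209.9 and 218 CPM against 148 to 204 CPM, was higher (0.35 ± 0.10, adjusted p = 0.011), with a change of -0.00298 on the log2(TPM + 1) scale.

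Gpi1 stood at 4409, 3514 and 3429 CPM in cKO LPS against 2222 to 3089 CPM (0.49 ± 0.13, adjusted p = 0.0067). Gapdh stood at 12047, 11415 and 12322 CPM against 7010.2 to 8442 CPM, with no overlap (0.58 ± 0.13, adjusted p = 0.0012). Pgk1 (0.58 ± 0.09, adjusted p = 9.3e-05) and Ldha (0.51 ± 0.10, adjusted p = 5.5e-04) rose by similar amounts. Aldoa (0.32 ± 0.09), Tpi1 (0.31 ± 0.10) and Pgam1 (0.31 ± 0.09) were called higher on counts, but their changes were -0.03, -0.05 and -0.05 on the log2(TPM + 1) scale. Aldoc, at 116, 121 and 118 CPM, was just outside the threshold (0.31 ± 0.12, adjusted p = 0.055). Slc16a1 stood at 8.91, 6.55 and 9.998 CPM against 4.67 to 6.94 CPM, overlapping (0.58 ± 0.22, adjusted p = 0.045). Eno2 had 34.5, 40.5 and 22 counts and was not called (0.18 ± 0.33, adjusted p = 0.71).

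Among HIF targets, Adm showed the widest difference, at 44.6, 38.7 and 44.3 CPM in cKO LPS against 3.15 to 8.73 CPM in WT LPS (2.90 ± 0.26, adjusted p = 2.0e-07). Vegfa stood at 30.8, 35.1 and 30.6 CPM against 6.49 to 9.92 CPM (1.93 ± 0.27, adjusted p = 3.0e-05). Mxi1 stood at 139.7, 125 and 137 CPM against 54.3 to 61.3 CPM (1.22 ± 0.13, adjusted p = 2.1e-06). All libraries of these 3 genes were higher in cKO cells than in any WT library, those with the cytokines included. P4ha1, at 1013, 887 and 858 CPM, was again above its WT LPS range of 453 to 545 CPM (0.85 ± 0.12, adjusted p = 3.7e-05). Ankrd37 stood at 221, 191 and 218 CPM against 113 to 121 CPM (0.85 ± 0.17, adjusted p = 7.3e-04).

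Bnip3 stood at 1007, 953 and 948 CPM against 419.5 to 696 CPM, without overlap (0.73 ± 0.16, adjusted p = 0.0015). Egln1, the hydroxylase that fell with LPS in WT cells, stood at 35.4, 31.2 and 37.2 CPM against 17.2 to 21.1 CPM (0.85 ± 0.18, adjusted p = 0.0015). Egln3 (0.93 ± 0.19, adjusted p = 0.0011) and Ndrg1 (1.27 ± 0.25, adjusted p = 0.0015) rose too. Hif1a, at 608, 593 and 549 CPM against 509 to 554 CPM, was not called (0.15 ± 0.09, adjusted p = 0.19), and on the log2(TPM + 1) scale it was lower (-0.21, adjusted p = 0.037).

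Of the other hypoxia targets 19 of 31 were higher and 1 lower, led by Ddit4 (2.87 ± 0.13, adjusted p = 1.9e-12) and Hilpda (1.75 ± 0.13, adjusted p = 1.6e-08). Further glycolysis and pyruvate genes split 4 higher and 4 lower of 23, with Pdk3 (0.55 ± 0.09, adjusted p = 1.5e-04) and Gpd2 (0.65 ± 0.12, adjusted p = 4.0e-04) higher. Pentose phosphate and glycogen genes split 4 higher and 5 lower of 15, with Pgd, phosphogluconate dehydrogenase, lower (-0.63 ± 0.11, adjusted p = 2.0e-04). HIF pathway genes split 3 higher, Arnt first (0.44 ± 0.09, adjusted p = 0.0012), and 1 lower of 10.

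The granulocyte list did not separate the genotypes under LPS, at summed levels of 2113 to 3749 CPM in cKO and 2234 to 4443 CPM in WT cells, with 0 of 14 markers called. Of 10 macrophage markers 4 were higher and 2 lower. Mast cell and basophil markers summed to 85.6 to 107 CPM in cKO and 54.1 to 59.4 CPM in WT cells, with 1 of 7 higher. Dendritic cell markers summed to 11720.0 to 12660.0 CPM and 10290.0 to 11220.0 CPM, with 1 of 12 called, which was lower. Their part was not tested. Without the first library of both cKO groups 16 of the 35 genes were higher and 0 lower, against 29.7% of all genes called. The calls lost were those of Gpi1 (0.37, adjusted p = 0.052), Hk2 (0.30, adjusted p = 0.058), Tpi1 (0.28, adjusted p = 0.064) and Slc16a1 (0.54, adjusted p = 0.1). Under upper-quartile scaling 18 were higher and 3 lower, where the median of all genes was -0.11. On the log2(TPM + 1) scale, where that median was -0.31, 11 were higher and 7 lower, and the median over the 35 genes was 0.01. Relative to all genes the 35 genes stood 0.40 higher on counts and 0.33 higher on the log2(TPM + 1) scale. The call rested on single libraries for Hk2 (lost without WT LPS 2, log2 0.24, adjusted p 0.067), Pgam1 (lost without WT LPS 2, log2 0.23, adjusted p 0.053), Tpi1 (lost without WT LPS 2, log2 0.21, adjusted p 0.093) and Slc16a1 (lost without WT LPS 2 or 3 or cKO LPS 1 or 3, log2 0.46 to 0.57, adjusted p 0.10 to 0.17).

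The LPS response within cKO cells raised 13 of the 35 genes and lowered 6, against 64.1% of all tested genes called, 29.3% higher and 34.8% lower. The median over the 35 genes was 0.15 against -0.09 over all genes. Of the 13 genes raised by LPS in WT cells and the 13 raised in cKO cells 11 were shared, which is 84.6% of either list, against 75.1% and 76.4% over all tested genes. Of the genes lowered, 4 were shared (Gpi1, Aldoc, Eno1, Pdk1), which is 57.1% of the WT list and 66.7% of the cKO list, against 80.2% and 66.6%. Pfkfb3 rose 18.4-fold in cKO cells (4.21 ± 0.18, adjusted p = 3.5e-13) and Slc2a1 4.19-fold (2.07 ± 0.12, adjusted p = 5.0e-12). Hk2 (1.73 ± 0.11, adjusted p = 1.3e-11), Hk3 (1.44 ± 0.11, adjusted p = 2.1e-10) and Hif1a (0.66 ± 0.09, adjusted p = 1.5e-06) rose. Gapdh (0.49 ± 0.13) and Ldha (0.31 ± 0.10) were called higher on counts but had changes of -0.01 and -0.21 on the log2(TPM + 1) scale. Pfkm (-0.58 ± 0.22, adjusted p = 0.024) and Pfkp (-0.49 ± 0.15, adjusted p = 0.0080) fell. Adm (2.60 ± 0.25, adjusted p = 1.8e-08), Vegfa (2.06 ± 0.27, adjusted p = 1.5e-06), P4ha1 (1.82 ± 0.13, adjusted p = 1.2e-10), Ankrd37 (1.31 ± 0.17, adjusted p = 1.7e-06) and Mxi1 (1.23 ± 0.13, adjusted p = 8.2e-08) rose. Pdk1 (-1.49 ± 0.18, adjusted p = 9.2e-07) and Aldoc (-1.38 ± 0.12, adjusted p = 4.7e-09) fell.

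In these cells LPS also lowered 9 of 14 granulocyte markers and raised 1, raised 4 and lowered 6 of 10 macrophage markers, and raised 4 and lowered 1 of 12 dendritic cell markers. Rn45s held 5.38 to 6.15% of the counts with LPS and 1.28 to 4.01% in medium. Their part was not tested. Of the other hypoxia targets 17 of 31 rose and 5 fell, and of the 10 HIF pathway genes 4 rose, among them Arnt (1.25 ± 0.10, adjusted p = 4.8e-10) and Vhl (1.06 ± 0.14, adjusted p = 1.2e-06), and 2 fell. Upper-quartile scaling, with a median of -0.25 over all genes and -0.00 over the 35 genes, called 12 of the 35 genes higher and 10 lower, and log2(TPM + 1), with medians of -0.47 and -0.38, called 10 higher and 17 lower. Without the first library of both cKO groups 13 were higher and 7 lower, against 56.3% of all genes called. Slc16a1 was gained (-0.59, adjusted p = 0.047). Dependence on single libraries was seen for Eno1 (lost without cKO LPS 2, log2 -0.29, adjusted p 0.052), Ldha (lost without cKO medium 2, log2 0.20, adjusted p 0.063) and Pfkm (lost without cKO medium 2 or cKO LPS 2 or 3, log2 -0.50 to -0.46, adjusted p 0.086 to 0.11).

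The difference between the LPS responses of the genotypes was itself tested as an interaction. It was called higher for 4 of the 35 genes and lower for 1, against 17.4% of all tested genes called, 7.33% higher and 10.1% lower, a share close to the background. Slc2a1 (1.25 ± 0.16, adjusted p = 6.8e-05), Pfkfb3 (1.20 ± 0.24, adjusted p = 0.0024), Slc16a1 (1.22 ± 0.29, adjusted p = 0.0064) and Gapdh (0.57 ± 0.18, adjusted p = 0.032) responded more positively to LPS in cKO cells. Ankrd37, which was already higher in cKO medium, responded less (-0.74 ± 0.24, adjusted p = 0.040). The other HIF targets, Adm (1.01 ± 0.42, adjusted p = 0.10) and Vegfa (-0.65 ± 0.45, adjusted p = 0.34) included, were not called. RLE scaling called 4 higher and 0 lower, upper-quartile scaling 4 and 2, and log2(TPM + 1), with a median of -0.25 over all genes, 3 and 5. Leaving out WT LPS 2 gave 3 higher and 4 lower (19.1% of all tested genes called), and leaving out cKO medium 3 gave 4 higher and 2 lower (17.7%). Each of these fits kept 3 of the calls made with all libraries. The count was 3, in each case higher, without WT medium 1, without cKO medium 1, without cKO LPS 3, or without the first library of both cKO groups. In the last of these settings Ankrd37 (-0.66, adjusted p = 0.13) and Gapdh (0.43, adjusted p = 0.12) were no longer called. Calls depended on single libraries for Ankrd37 (lost on leaving out any 1 of 10 of the 12 libraries, log2 -0.76 to -0.63, adjusted p 0.056 to 0.11) and Gapdh (lost on leaving out any 1 of 6 of the 12 libraries, log2 0.44 to 0.58, adjusted p 0.051 to 0.084). For this interaction 3 of 10 macrophage markers were called higher and 1 lower, and 4 of 14 granulocyte markers lower. None of 12 dendritic cell markers and of 7 mast cell and basophil markers was called. The part of these lists was not tested.

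IL10 with TGF-β alone lowered 9 of the 25 glycolysis genes in WT cells, Slc2a6 4.93-fold, while raising Hif1a 2.13-fold and Pfkfb3 2.82-fold. Of the 35 genes 13 fell and 6 rose against medium, where 35.2% of all tested genes were called, 16.9% lower and 18.3% higher. Over the 35 genes the median was -0.22, against -0.00 over all genes. Of the 25 glycolysis genes 9 fell (Slc2a6, Hk1, Gpi1, Pfkm, Pfkp, Aldoc, Tpi1, Pgk1, Pdk1) and 3 rose (Hk2, Pfkfb3, Pfkfb4). Of the 10 HIF genes 4 fell (Bnip3, Egln1, Ankrd37, Ndrg1) and 3 rose (Hif1a, Vegfa, P4ha1).

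Slc2a6 fell furthest, to 47.2, 31 and 39.1 CPM from 169 to 218 CPM in WT medium (-2.30 ± 0.16, adjusted p = 1.0e-09). Slc2a1, at 226, 226 and 185 CPM, overlapped medium (0.09 ± 0.11, adjusted p = 0.60). Hk2 stood at 78.2, 72.6 and 69.5 CPM against 58.8 to 61.1 CPM (0.29 ± 0.10, adjusted p = 0.032). Hk3, at 124, 109 and 93.9 CPM, was not called (0.19 ± 0.10, adjusted p = 0.17), and Hk1 fell (-0.58 ± 0.11, adjusted p = 3.0e-04). Gpi1 fell to 1589.7, 1711 and 1412 CPM from 2791 to 3874 CPM (-1.10 ± 0.13, adjusted p = 1.3e-06). Pfkfb3 rose to 49.1, 44.8 and 34.7 CPM from 11.4 to 17.4 CPM (1.5 ± 0.17, adjusted p = 1.2e-06), opposite in direction to the phosphofructokinase subunits Pfkp (-0.68 ± 0.15, adjusted p = 0.0015) and Pfkm (-0.60 ± 0.21, adjusted p = 0.028). Pfkl, the liver-type subunit, was just outside the threshold (-0.28 ± 0.11, adjusted p = 0.051) and inside it with the replicate number as a block (-0.28, adjusted p = 0.04).

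Aldoc fell to 148, 179.9 and 140.1 CPM from 189 to 268 CPM (-0.58 ± 0.12, adjusted p = 6.6e-04). Pgk1 (-0.45 ± 0.09, adjusted p = 7.0e-04), Tpi1 (-0.39 ± 0.10, adjusted p = 0.0039) and Pdk1 (-0.54 ± 0.17, adjusted p = 0.021) fell too. Gapdh, at 8279, 9110.2 and 8336 CPM, overlapped medium (0.03 ± 0.13, adjusted p = 0.87), as did Slc16a1 at 17.8, 15 and 15.7 CPM (-0.13 ± 0.18, adjusted p = 0.61). Ldha was not called (-0.12 ± 0.10, adjusted p = 0.36), nor was Eno2, at 3, 5 and 1 counts.

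Hif1a rose with the cytokines alone, to 739, 768 and 705 CPM from 339 to 357 CPM (1.09 ± 0.09, adjusted p = 3.9e-09). Of the other HIF genes 2 rose and 4 fell. Ankrd37 fell to 21.6, 14.7 and 11.7 CPM from 24.1 to 33 CPM (-0.81 ± 0.18, adjusted p = 0.0019), and Egln1 fell to 17.5, 18.1 and 14.1 CPM from 29.8 to 43 CPM (-1.10 ± 0.18, adjusted p = 5.8e-05). Ndrg1 fell 2.83-fold (-1.5 ± 0.26, adjusted p = 3.3e-04). Bnip3 stood at 530.2, 593 and 399 CPM against 580.1 to 792 CPM, overlapping but called lower (-0.48 ± 0.16, adjusted p = 0.023). Vegfa rose to 3.3, 4.91 and 2.14 CPM from 0.421 to 1.89 CPM (1.42 ± 0.38, adjusted p = 0.0064). P4ha1 stood at 225, 236 and 185 CPM against 149 to 189 CPM (0.33 ± 0.12, adjusted p = 0.046). Adm, at 3.3, 3.3 and 3.21 CPM, missed the threshold (0.80 ± 0.34, adjusted p = 0.071). Mxi1, at 30.5, 29.9 and 24.3 CPM, overlapped medium (-0.02 ± 0.14, adjusted p = 0.93).

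Cell type markers moved with the cytokines. Dendritic cell markers summed to 2827 to 3570 CPM with the cytokines against 5966 to 13670 CPM in WT medium, and 10 of 12 fell and none rose. Granulocyte markers summed to 6749 to 9653 CPM against 925 to 1492 CPM, and 13 of 14 rose and none fell. Of 10 macrophage markers 6 rose and 1 fell, at 2338 to 2738 CPM against 1851 to 2016 CPM. Of 7 mast cell and basophil markers 6 rose and 1 fell, at 37.9 to 59.96 CPM. Their part in the metabolic gene results was not tested. Of the other hypoxia targets 9 of 31 rose, Hilpda first (1.73 ± 0.13, adjusted p = 1.2e-09), and 7 fell. Of 10 HIF pathway genes none rose and 3 fell, with Vhl, the ubiquitin ligase subunit, lower (-1.28 ± 0.14, adjusted p = 4.7e-07). Further glycolysis and pyruvate genes fell in 7 of 23 cases and rose in none, with Pgm2 lower (-0.47 ± 0.11, adjusted p = 0.0021). Of 15 pentose phosphate and glycogen genes 3 rose, with H6pd first (1.45 ± 0.17, adjusted p = 6.6e-07), and 6 fell.

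Upper-quartile scaling called 4 of the 35 genes higher and 17 lower with the cytokines, and log2(TPM + 1), with a median of -0.12 over all genes, 3 higher and 18 lower. Single libraries decided the call for Bnip3 (lost without WT medium 1 or 2 or WT cytokine 3, log2 -0.44 to -0.34, adjusted p 0.076 to 0.12), Hk2 (lost on leaving out any 1 of 5 of the 6 libraries, log2 0.25 to 0.31, adjusted p 0.051 to 0.12), P4ha1 (lost without WT medium 2 or 3 or WT cytokine 1 or 2, log2 0.24 to 0.35, adjusted p 0.078 to 0.19), Pdk1 (lost without WT medium 1 or 2 or WT cytokine 1 or 3, log2 -0.53 to -0.50, adjusted p 0.055 to 0.067), Pfkm (lost without WT medium 2 or WT cytokine 1 or 3, log2 -0.61 to -0.45, adjusted p 0.062 to 0.14) and Vegfa (lost without WT cytokine 2, log2 1.07, adjusted p 0.053).

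When the cytokines were given together with LPS, 10 of the 25 glycolysis genes were higher than with LPS alone, with Pfkfb3 2.68-fold and Aldoc 2.18-fold higher and Slc2a6 6.07-fold lower. Of the 35 genes 14 rose and 6 fell, against 40.3% of all tested genes called, 19.1% higher and 21.1% lower. The median over the 35 genes was 0.13 against -0.01 over all genes. Of the 25 glycolysis genes 10 rose (Pfkfb2, Pfkfb3, Aldoa, Aldoc, Gapdh, Pgk1, Eno1, Ldha, Slc16a1, Pdk1) and 4 fell (Slc2a6, Hk3, Pfkp, Eno2). Of the 10 HIF genes 4 rose (Hif1a, Bnip3, Adm, Egln1) and 2 fell (Ankrd37, Mxi1). Of the 6 and 14 genes raised by the cytokines without and with LPS, Hif1a and Pfkfb3 were shared (33.3% and 14.3%, against 49.5% and 47.3% over all tested genes). Of the 13 and 6 genes lowered, Slc2a6, Pfkp and Ankrd37 were shared (23.1% and 50%, against 49.6% and 39.6%).

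Slc2a6 fell to 34.3, 27.8 and 27.4 CPM from 154 to 224 CPM with LPS alone (-2.60 ± 0.16, adjusted p = 4.6e-10). Slc2a1, at 388, 359.7 and 353 CPM, and Hk2, at 166, 163 and 152 CPM, overlapped LPS alone (adjusted p = 0.72 and 0.39). Hk3 fell to 180.4, 159 and 188 CPM from 329.9 to 354 CPM (-0.96 ± 0.10, adjusted p = 2.4e-07). Pfkfb3 rose further, to 373, 295 and 311 CPM from 114 to 132 CPM (1.42 ± 0.16, adjusted p = 7.3e-07). Gpi1, at 2483, 2286 and 2417 CPM, was not called (-0.17 ± 0.13, adjusted p = 0.34). Aldoc rose to 204, 206 and 212 CPM from 79.9 to 107 CPM (1.12 ± 0.12, adjusted p = 3.2e-07). Gapdh rose to 12041, 11228 and 12062 CPM from 7010.2 to 8442 CPM (0.57 ± 0.13, adjusted p = 0.0010).

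Slc16a1 rose to 13.2, 14 and 11.5 CPM from 4.67 to 6.94 CPM (1.18 ± 0.20, adjusted p = 8.8e-05). Ldha (0.41 ± 0.10, adjusted p = 0.0026), Eno1 (0.39 ± 0.11, adjusted p = 0.0078) and Pdk1 (0.59 ± 0.18, adjusted p = 0.013) rose as well. Eno2 had 10.03, 6 and 3 counts against 39, 36.9 and 38 with LPS alone (-2.81 ± 0.41, adjusted p = 1.3e-05). All of these genes except Gpi1, Slc2a1 and Hk2 separated the groups. The share of all tested genes that did so was not counted.

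Hif1a rose to 832, 800.0 and 736 CPM from 509 to 554 CPM (0.59 ± 0.09, adjusted p = 1.9e-05). Bnip3 rose to 1016, 1022 and 933 CPM from 419.5 to 696 CPM (0.76 ± 0.16, adjusted p = 6.7e-04). Adm rose to 12.5, 17.6 and 10.1 CPM from 3.15 to 8.73 CPM (1.24 ± 0.26, adjusted p = 7.9e-04). Egln1, the sensor hydroxylase, rose to 28.5, 25.3 and 34.2 CPM from 17.2 to 21.1 CPM (0.61 ± 0.18, adjusted p = 0.011). Ankrd37 went down, to 68.2, 69.5 and 72.2 CPM from 113 to 121 CPM (-0.73 ± 0.17, adjusted p = 0.0018), and Mxi1 went down to 40.3, 40.8 and 42.6 CPM from 54.3 to 61.3 CPM (-0.48 ± 0.14, adjusted p = 0.0079). Vegfa, at 8.51, 10.1 and 7.84 CPM, overlapped LPS alone (0.06 ± 0.28, adjusted p = 0.88). P4ha1, at 451, 415 and 409 CPM, was not called (-0.27 ± 0.12, adjusted p = 0.095).

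Dendritic cell markers summed to 2476 to 3104 CPM against 10290.0 to 11220.0 CPM with LPS alone, and 12 of 12 fell. Granulocyte markers summed to 6426 to 7541 CPM, with 9 of 14 higher and 1 lower, and macrophage markers to 3243 to 3582 CPM against 1899 to 2090 CPM, with 8 of 10 higher. Their part was not tested. Of the other hypoxia targets 8 of 31 rose, led by Trf (2.32 ± 0.13, adjusted p = 3.0e-11) and Plin2 (1.48 ± 0.11, adjusted p = 8.5e-10), and 4 fell. Of 23 further glycolysis and pyruvate genes 1 rose and 4 fell, with Gpd2 lower (-1.09 ± 0.12, adjusted p = 5.5e-07). Of 15 pentose phosphate and glycogen genes 4 rose and 2 fell, and of 10 HIF pathway genes 2 rose and 4 fell. The call rested on single libraries for Aldoa (lost without WT LPS 1 or 2 or WT LPS plus cytokine 1 or 2, log2 0.19 to 0.24, adjusted p 0.063 to 0.17), Egln1 (lost without WT LPS 2 or WT LPS plus cytokine 3, log2 0.49 to 0.53, adjusted p 0.050 to 0.062), Eno1 (lost without WT LPS plus cytokine 3, log2 0.31, adjusted p 0.052), Pfkfb2 (lost without WT LPS 2 or 3 or WT LPS plus cytokine 2 or 3, log2 0.53 to 0.62, adjusted p 0.068 to 0.098), Pfkp (lost on leaving out any 1 of 5 of the 6 libraries, log2 -0.44 to -0.20, adjusted p 0.063 to 0.28) and Pgk1 (lost without WT LPS 1 or 2 or WT LPS plus cytokine 1 or 3, log2 0.20 to 0.26, adjusted p 0.058 to 0.13). Without WT LPS 2 the Pdk1 change was 0.34 (adjusted p = 0.029).

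Set against the cytokines alone, LPS raised 23 of the 35 genes and lowered 0, against 46.9% of all tested genes called, 23.9% higher and 23.1% lower. At an unadjusted p under 0.05, 1 was lower (Slc2a6), and DESeq2 called 1 lower. Over the 35 genes the median was 0.55 against -0.00 over all genes. Of the 25 glycolysis genes 14 rose (Slc2a1, Hk1, Hk2, Hk3, Gpi1, Pfkl, Pfkfb3, Aldoa, Aldoc, Tpi1, Gapdh, Pgk1, Pgam1, Ldha), and of the 10 HIF genes 9 rose, with Hif1a the exception (0.10 ± 0.09, adjusted p = 0.39). Pfkfb3 (2.93 ± 0.17, adjusted p = 4.1e-10), Ankrd37 (2.13 ± 0.18, adjusted p = 4.6e-08), Adm (2.03 ± 0.27, adjusted p = 5.6e-06), Vegfa (1.35 ± 0.30, adjusted p = 0.0011) and Ndrg1 (1.29 ± 0.26, adjusted p = 8.1e-04) led. Hk2 (1.13 ± 0.10, adjusted p = 3.4e-08), P4ha1 (0.98 ± 0.13, adjusted p = 2.3e-06), Bnip3 (0.97 ± 0.16, adjusted p = 6.3e-05), Slc2a1 (0.79 ± 0.11, adjusted p = 1.1e-05), Pgk1 (0.66 ± 0.09, adjusted p = 9.4e-06) and Ldha (0.66 ± 0.10, adjusted p = 1.9e-05) followed. Slc2a6 was not called (-0.39 ± 0.16, adjusted p = 0.056). Of the other hypoxia targets 23 of 31 rose, Ddit4 first (3.41 ± 0.15, adjusted p = 4.4e-12), and 1 fell. Of 10 HIF pathway genes 3 rose, with Vhl (1.29 ± 0.14, adjusted p = 4.6e-07) first, and 1 fell. Granulocyte markers split 1 higher and 2 lower of 14 here, and dendritic cell markers 0 higher and 2 lower of 12. Macrophage markers split 3 higher and 3 lower of 10, at 3243 to 3582 CPM with LPS and the cytokines against 2338 to 2738 CPM with the cytokines alone. Their part was not tested. Dependence on single libraries was seen for Aldoa (lost without WT cytokine 3 or WT LPS plus cytokine 1, log2 0.24 to 0.26, adjusted p 0.058 to 0.068), Aldoc (lost without WT cytokine 3, log2 0.33, adjusted p 0.056) and Egln3 (lost without WT cytokine 3, log2 0.53, adjusted p 0.052).

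**Figure D4:**
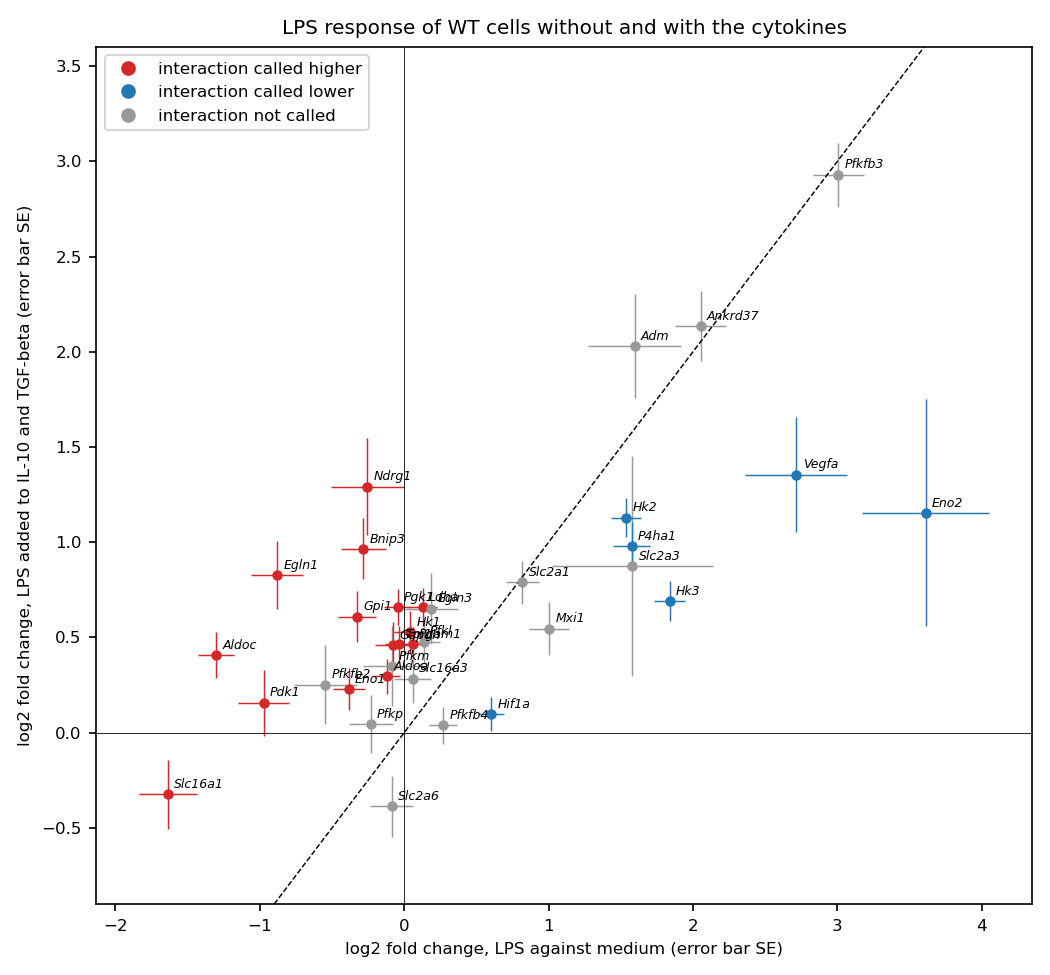
Log2 response to LPS of the 35 genes without the cytokines (horizontal axis) and with them (vertical axis), with SE bars. Colour shows whether the interaction was called, and the dashed line marks equal responses. Aldoc, Egln1 and Slc16a1 lie well above the line, and Vegfa, Hk3 and Eno2 below it.

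The LPS responses without and with the cytokines were compared as an interaction, which uses all 12 WT libraries. It was called higher for 15 of the 35 genes and lower for 6, against 20.9% of all tested genes called, 8.88% higher and 12.1% lower. Their median was 0.41 against 0.00 over all genes. The response was more positive with the cytokines for 12 glycolysis genes (Hk1, Gpi1, Aldoa, Aldoc, Tpi1, Gapdh, Pgk1, Pgam1, Eno1, Ldha, Slc16a1, Pdk1) and for Bnip3, Egln1 and Ndrg1. It was less positive for Hk2, Hk3, Eno2, Hif1a, Vegfa and P4ha1.

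Aldoc (1.71 ± 0.17, adjusted p = 2.7e-07) and Egln1 (1.71 ± 0.25, adjusted p = 5.2e-05) gave the largest positive interactions. Both fell with LPS alone and rose with LPS in the presence of the cytokines. Ndrg1 (1.55 ± 0.36, adjusted p = 0.0065), Slc16a1 (1.31 ± 0.27, adjusted p = 0.0014), Bnip3 (1.25 ± 0.22, adjusted p = 4.4e-04) and Pdk1 (1.13 ± 0.25, adjusted p = 0.0029) followed. Smaller values were found for other glycolysis enzymes, among them Pgk1 (0.70 ± 0.13, adjusted p = 5.9e-04), Ldha (0.53 ± 0.14, adjusted p = 0.010) and Tpi1 (0.50 ± 0.14, adjusted p = 0.014). In the other direction, Hk3 (-1.15 ± 0.15, adjusted p = 6.6e-06) and Hif1a (-0.51 ± 0.13, adjusted p = 0.0060) had smaller LPS responses with the cytokines than without. Slc2a1 (-0.03 ± 0.16, adjusted p = 0.93), Pfkfb3 (-0.07 ± 0.23, adjusted p = 0.87) and Ankrd37 (0.08 ± 0.25, adjusted p = 0.87) were not called, and their interaction values lay within 1 SE of 0. The dendritic and granulocyte marker values given above differ between the cytokine and other groups. For the interaction itself 6 of 10 macrophage markers were called higher and 3 lower. Called lower were 1 of 12 dendritic cell, 3 of 14 granulocyte, and 1 of 7 mast cell and basophil markers, and none of these lists had a marker higher. The part of these lists was not tested. Under upper-quartile scaling all genes had a median of 0.11, and log2(TPM + 0.1) called 15 genes higher and 3 lower. Without WT cytokine 1 the count was 13, against 16.4% of all tested genes. Calls depended on single libraries for Aldoa (lost on leaving out any 1 of 5 of the 12 libraries, log2 0.36 to 0.41, adjusted p 0.052 to 0.078), Eno2 (lost on leaving out any 1 of 8 of the 12 libraries, log2 -2.47 to -1.92, adjusted p 0.051 to 0.22), Gapdh (lost on leaving out any 1 of 7 of the 12 libraries, log2 0.45 to 0.52, adjusted p 0.066 to 0.085), Hk1 (lost on leaving out any 1 of 7 of the 12 libraries, log2 0.36 to 0.49, adjusted p 0.058 to 0.096), Hk2 (lost on leaving out any 1 of 11 of the 12 libraries, log2 -0.45 to -0.28, adjusted p 0.052 to 0.15), P4ha1 (lost without WT medium 3 or WT LPS 3 or WT cytokine 1 or 2, log2 -0.56 to -0.50, adjusted p 0.050 to 0.064), Pgam1 (lost on leaving out any 1 of 7 of the 12 libraries, log2 0.33 to 0.41, adjusted p 0.050 to 0.070) and Vegfa (lost on leaving out any 1 of 9 of the 12 libraries, log2 -1.51 to -0.94, adjusted p 0.055 to 0.17).

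TPM, which accounts for gene length, allows the levels of related genes to be set side by side, as a description with no test. Among Slc2a1, Slc2a3 and Slc2a6, Slc2a6 held 52.4% of the summed TPM in WT medium and Slc2a1 45.0%. Slc2a1 held 58.0% with LPS, 79.0% with the cytokines, 87.6% with both, 53.8% in cKO medium and 82.1% in cKO LPS. Slc2a6 held 36.4%, 17.8%, 8.64%, 30.6% and 13.6% in the same groups. Slc2a3 held at most 5.56% in the group means other than cKO medium, where it held 15.7%. Slc2a6 was thus the most abundant of the 3 in WT medium only, by group means.

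Among hexokinases, Hk1 held 45.1% in WT medium and Hk3 40.6%. With LPS Hk3 held 62.6% in WT and 55.2% in cKO cells, and Hk1 19.8% and 21.7%. Among the PFKFB genes, Pfkfb4 held 70.4% and Pfkfb3 20.1% in WT medium. Pfkfb3 held 63.2% with LPS, 79.9% with LPS and the cytokines, and 85.1% in cKO LPS, so the order of these genes was reversed. Other families kept 1 dominant member in the mean of every group. Aldoa held at least 93.2% of aldolase TPM, Eno1 at least 99.9% of enolase TPM, Slc16a3 98.0% or more of Slc16a1 and Slc16a3 TPM, and Egln3 at least 95.3% of Egln1 and Egln3 TPM. Pfkl and Pfkp shared phosphofructokinase TPM, with Pfkl at 41.8% in WT medium and 55.7% with LPS and the cytokines, and Pfkm at 1.39% or less.

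**Figure D5:**
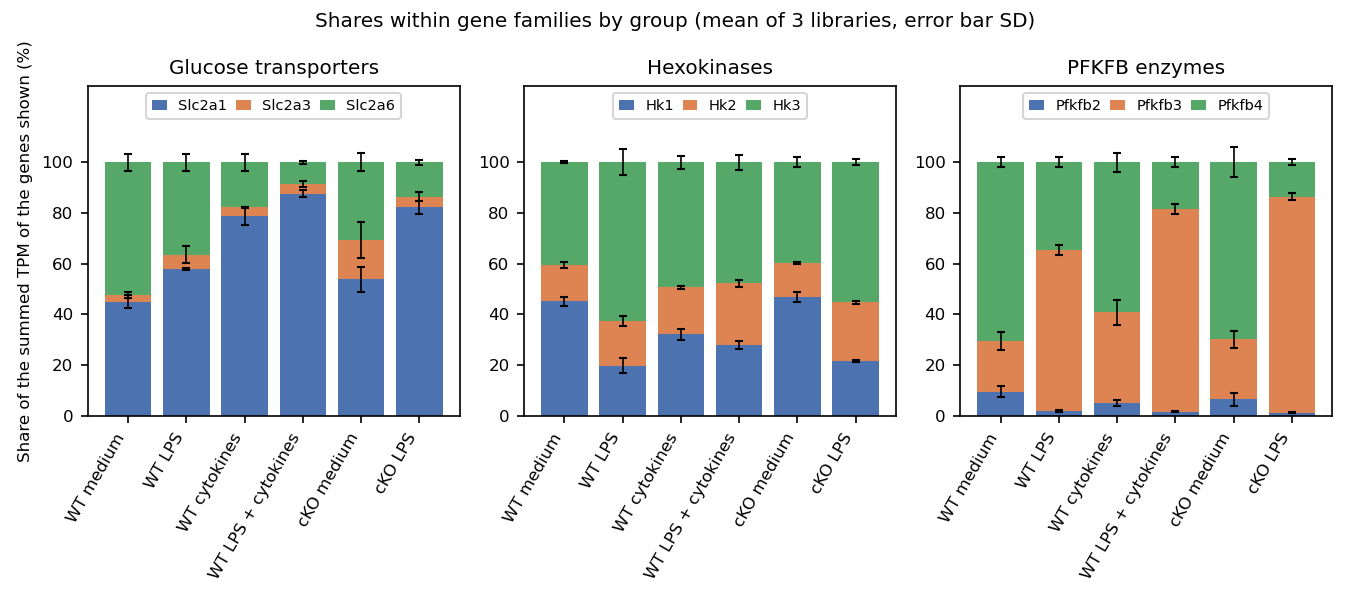
Share of the summed TPM within glucose transporters, hexokinases and PFKFB enzymes (vertical axis, percent) in the 6 groups, as the mean of 3 libraries with SD bars. Slc2a6 has its highest share in WT medium (52.4%) and its lowest with LPS and the cytokines (8.64%), with 13.6% in cKO LPS, and Pfkfb3 takes over from Pfkfb4 in each group with LPS.

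As a share of all transcripts, the 25 glycolysis genes together held 3.55 to 3.76% of TPM in WT medium and 2.44 to 3.27% in WT LPS. The share was 2.87 to 3.07% with the cytokines and 3.61 to 3.79% with LPS and the cytokines. In cKO cells it was 3.77 to 4.23% in medium and 2.99 to 3.32% with LPS. The enzymes with very high counts, Gapdh, Ldha, Aldoa, Eno1, Pgam1, Pgk1, Gpi1 and Tpi1, dominate these sums. Gapdh, Aldoa, Eno1, Pgam1, Ldha and Tpi1 have near-identical processed copies in the genome, so reads shared with such copies make their values uncertain.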

How the data were processed

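Gene-level expected counts and TPM were read from 1 table per library, as the authors deposited them. RSEM on mm10, after bcl2fastq, made the expected counts and the TPM values, per the submitters' processing notes, which give no versions. The deposited TPM sums to the same total in every library and was used for shares within gene families and as an alternative scale. The design text names other aligners, whose output was not used here. Whether counting used strand is not given in the sources used here, and reads of overlapping or antisense genes cannot be told apart.

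Counts were rounded to whole numbers, filtered with filterByExpr (11876 of 23420 genes kept), scaled by TMM, and fitted over all 18 libraries with edgeR 4.0.16 under R 4.3.3 (robust quasi-likelihood F-test, Benjamini-Hochberg within each comparison, calls at 0.05). The common biological coefficient of variation was 0.13. The scripts were tested on simulated data, with changes put into the comparison of genotypes under LPS. Of the changed genes 37.3% were recovered at 1.5-fold, 77.3% at 2-fold and 95.5% at 4-fold. A gene that was not called may therefore still differ. A chi-square of 3.64 to 36.3 per degree of freedom between libraries of a group showed more spread than sampling noise alone.

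The 35 genes, the gene and marker lists, the tests and the alternatives were chosen with earlier results of these data known. Values in every library are given for 17 genes, those among the 4 smallest adjusted p in any of the 9 comparisons, and for 2 others (Slc2a3 and Eno2, the latter as counts) because of their low or scattered counts. At most 2 called genes are named from each other list. Lists covered further glycolysis, pentose phosphate and glycogen, HIF pathway and hypoxia target genes, and markers of dendritic cells, granulocytes, macrophages, lymphocytes, erythroid cells, and mast cells and basophils.

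Alternatives were DESeq2 1.42.0, scaling by RLE or by upper quartile, a filter of 5 CPM in 3 libraries or none, a fit of the compared groups alone, a 2-fold requirement, a block for the replicate number, limma 3.58.1 on log2(TPM + 1) or log2(TPM + 0.1), removal of the ribosomal RNA gene Rn45s, removal of the first library of both cKO groups, and each library left out in turn. Libraries with the same replicate number were checked for pairing over 8118 genes. In 1 of 7 pairs of groups, WT medium and WT cytokines, every correlation of their deviations was over 0.1 (0.352, 0.215 and 0.445). Between cKO medium and cKO LPS they were 0.171, 0.051 and 0.184, and each cKO LPS library correlated best with the medium library of its own number. Such pairing comes from the data, since the labels do not say what a number stands for. The blocked value is given where it changed a call. Promoter windows come from RefSeq on GRCm38.p6.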

Additional observations from a re-analysis of the deposited data

Results flagged for a closer look

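The response of a gene to LPS differed between the genotypes, or between cells without and with IL10 and TGF-β, by a test of the interaction itself (edgeR quasi-likelihood, adjusted p under 0.05). By this test 5 of the 35 genes differed between genotypes, against 17.4% of all tested genes. The log2 difference, cKO response minus WT response, was 1.25 for Slc2a1, 1.20 for Pfkfb3, 1.22 for Slc16a1, 0.57 for Gapdh and -0.74 for Ankrd37. The calls of Gapdh and Ankrd37 depended on single libraries, as given above.

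By the same test 21 of the 35 genes responded differently to LPS in the presence of the cytokines, against 20.9% of all tested genes. The log2 difference, response with the cytokines minus response without, was positive for 15 genes. It was 0.48 for Hk1, 0.94 for Gpi1, 0.41 for Aldoa, 1.71 for Aldoc, 0.50 for Tpi1 and 0.53 for Gapdh. It was 0.70 for Pgk1, 0.40 for Pgam1, 0.61 for Eno1, 0.53 for Ldha, 1.31 for Slc16a1 and 1.13 for Pdk1. Among HIF genes it was 1.25 for Bnip3, 1.71 for Egln1 and 1.55 for Ndrg1. It was negative for 6 genes, at -0.41 for Hk2, -1.15 for Hk3, -2.46 for Eno2, -0.51 for Hif1a, -1.36 for Vegfa and -0.59 for P4ha1. The calls of Aldoa, Eno2, Gapdh, Hk1, Hk2, P4ha1, Pgam1 and Vegfa depended on single libraries, as given above.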

How the results depend on the processing

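Requiring a 2-fold change as well as the adjusted p left fewer genes called, given here with the share of all tested genes in brackets. Between genotypes 4 of the 35 genes were left in medium (7.44%) and 6 under LPS (8.32%). For LPS 12 were left in WT (24.9%) and 12 in cKO (32.4%). For the cytokines 7 were left in medium (13.0%) and 6 when added to LPS (14.3%). LPS added to the cytokines left 6 (14.3%), the genotype interaction 3 (6.16%) and the cytokine interaction 9 (9.49%). By construction this setting asks more of each gene. The genotype interaction, called for 5 genes, gave 10 without the count filter, 8 on either TPM scale and 3 without the first library of both cKO groups. Over all tested genes the shares called were 17.4%, 11.1%, 27.9% or 28.7%, and 10.5%, in that order. The cause was not tested. Apart from single libraries left out, the other settings kept each total of called genes within 1.5 times, but not each split by direction: for LPS in cKO the genes called lower went from 6 to 17 on either TPM scale.

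Leaving out 1 library at a time gave these ranges, with the share of all tested genes called in brackets. Between genotypes 12 to 16 of the 35 genes were called in medium (20.9 to 29.3%) and 19 to 21 under LPS (25.5 to 34.7%). For LPS the count was 17 to 21 in WT (52.0 to 55.7%) and 17 to 20 in cKO (58.5 to 61.3%). For the cytokines it was 14 to 17 in medium (27.3 to 33.2%) and 15 to 19 when added to LPS (33.9 to 36.4%). LPS added to the cytokines gave 20 to 24 (37.9 to 42.2%). The genotype interaction gave 3 to 7 (12.1 to 19.1%) and the cytokine interaction 13 to 21 (16.4 to 20.6%). The totals past 1.5 times were 13 for the cytokine interaction without WT cytokine 1, and 3 for the genotype interaction without WT medium 1, cKO medium 1 or cKO LPS 3.

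With the replicate number as a block no call was lost, and 7 were gained. They were Eno2 (adjusted p = 0.042, at counts too low for a fold) and Hk1 (0.27, adjusted p = 0.049) between genotypes in medium, Eno1 (0.27, adjusted p = 0.041) and Slc2a6 (-0.38, adjusted p = 0.04) between genotypes under LPS, Pfkl with the cytokines (-0.28, adjusted p = 0.04), P4ha1 with the cytokines added to LPS (-0.27, adjusted p = 0.049) and Slc2a6 with LPS added to the cytokines (-0.38, adjusted p = 0.039). All but the Pfkl gain come from pairs of groups in which not every correlation of same-numbered libraries was over 0.1. Between genotypes these were 0.153, -0.0467 and 0.0607 in medium and 0.189, 0.116 and -0.0516 under LPS. Those gains rest on a pairing that the data do not show. In the order of the comparisons above, the blocked fit called 17, 22, 20, 19, 20, 21, 24, 5 and 21 genes.

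For a gene called in either fit, the sign turned only on the TPM scales. The median over the 35 genes also turned under upper-quartile scaling, from 0.06 to -0.06 for LPS in WT and from 0.15 to -0.00 for LPS in cKO. Between genotypes under LPS, log2(TPM + 1) and log2(TPM + 0.1) gave -0.0345 and -0.0345 for Aldoa, -0.21 and -0.21 for Hif1a, -0.00298 and -0.00264 for Hk2, -0.0497 and -0.0497 for Pgam1, and -0.0460 and -0.0460 for Tpi1. For LPS in cKO cells they gave -0.47 and -0.47 for Aldoa, -0.0149 and -0.0149 for Gapdh, -0.21 and -0.21 for Ldha, -0.38 and -0.38 for Pgam1, -0.41 and -0.41 for Pgk1, and -0.36 and -0.36 for Tpi1. The median of all genes in these comparisons was -0.31 and -0.47 on log2(TPM + 1), against -0.05 and -0.09 on counts. Low counts limit Eno2, Adm, Vegfa, Pfkm, Pfkfb2 and Slc16a1, and 3 libraries a group limit every comparison.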
